A study of Mus musculus with 12 samples.

Results

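The genes described here mark the blood vessels of the mouse cortex and the connective tissue around them: endothelial cells, pericytes, vascular smooth muscle, and the fibroblasts of the vessel wall and meninges. They were taken by name from a list of 34 genes, and all 34 were found among the 34193 rows of the deposited expression table. The measured mean reached the minimum of 10 normalised reads set for testing in 33 of them, out of 14397 tested genes, and Cnn1 did not reach it. The samples were cerebral cortex of mice aged 8 weeks. The 6 libraries called cKO came from Nsd1 flx/flx; Nestin-cre +/- mice and the 6 controls from Nsd1 flx/flx; Nestin-cre -/- mice, so every animal carried the floxed alleles and only the cKO animals carried the recombinase. The comparison asked how cortical RNA differs after loss of NSD1, a methyltransferase that places the H3K36me2 mark on histone H3. The Nestin-Cre transgene acts in neural progenitors and their descendants, a lineage to which endothelial cells and most fibroblasts do not belong. Its activity in vascular cells was not measured in these libraries.

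Brain endothelial cells line the vessels and form the blood-brain barrier through tight junctions and dedicated transporters. Pericytes and smooth muscle cells wrap them and depend on endothelial PDGF-B acting on their receptor PDGFR-beta, while fibroblasts lay down collagen in the meninges and around larger vessels. In cortical tissue all these cells are a minority beside neurons and glia. Their markers were therefore read in RNA of the whole tissue, in which fewer cells of a type and less RNA per cell cannot be told apart.

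The libraries held 10.5 to 21.1 M reads in controls and 14.6 to 26.98 M in cKO. All values below are read counts scaled by the authors between libraries, called normalised reads here, and a threshold of 3 reads corresponded to 1.98 to 5.64 normalised reads. Nsd1 itself stood at 4235 ± 849.9 normalised reads in controls and 3251 ± 299 in cKO (SD, n = 6 each), with a log2 difference of -0.36 (SE 0.12) and an adjusted p of 0.383, so the test over all genes did not call the targeted gene. Libraries 1 to 3 of each genotype held Y-linked reads, at a summed value of 1768 or more for 4 genes, and libraries 4 to 6 held 3.09 or less, so the model carried a term for this split. Control libraries 4 and 5 had 14.2% and 11.5% of their reads on mitochondrial ribosomal RNA, against 1.46% to 6.00% in the other 10. Markers of all 3 vascular classes were present in every library: the lowest value was 676 normalised reads for Flt1, 357 for Pdgfrb and 121 for Dcn.

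No vascular, mural or fibroblast marker was called different between cKO and control cortex. The summed level of the 34 genes was 13666 ± 579 normalised reads in controls and 13801 ± 636 in cKO (SD, n = 6 each). This sum leans on abundant genes: Slc2a1, the most abundant, averaged 2369 in controls and 2659 in cKO. By gene, 12 of the 33 tested were above 0 on the log2 scale and 21 below, where 49.9% of all tested genes were above 0. Without control libraries 4 and 5, 20 markers were above 0. Of the 33 tested, 0 passed an adjusted p of 0.05 in limma, where 0.834% of all tested genes did, and the smallest adjusted p among them was 0.476. At an unadjusted p under 0.05 stood 2 of 33, Itm2a and Higd1b, against 9.73% of all genes. Both were lower in cKO, a direction and threshold met by 5.13% of all genes. In 0 of 33 did the 6 cKO values lie wholly outside the control range, against 1.01% of all genes. The authors' deposited table likewise gave 0 of the markers an adjusted p under 0.05, against 0.906% of all genes with an adjusted p there. Its smallest value for a marker was 0.494, and Itm2a, Vtn and Higd1b were the 3 with an unadjusted p under 0.05.

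**Figure D1:**
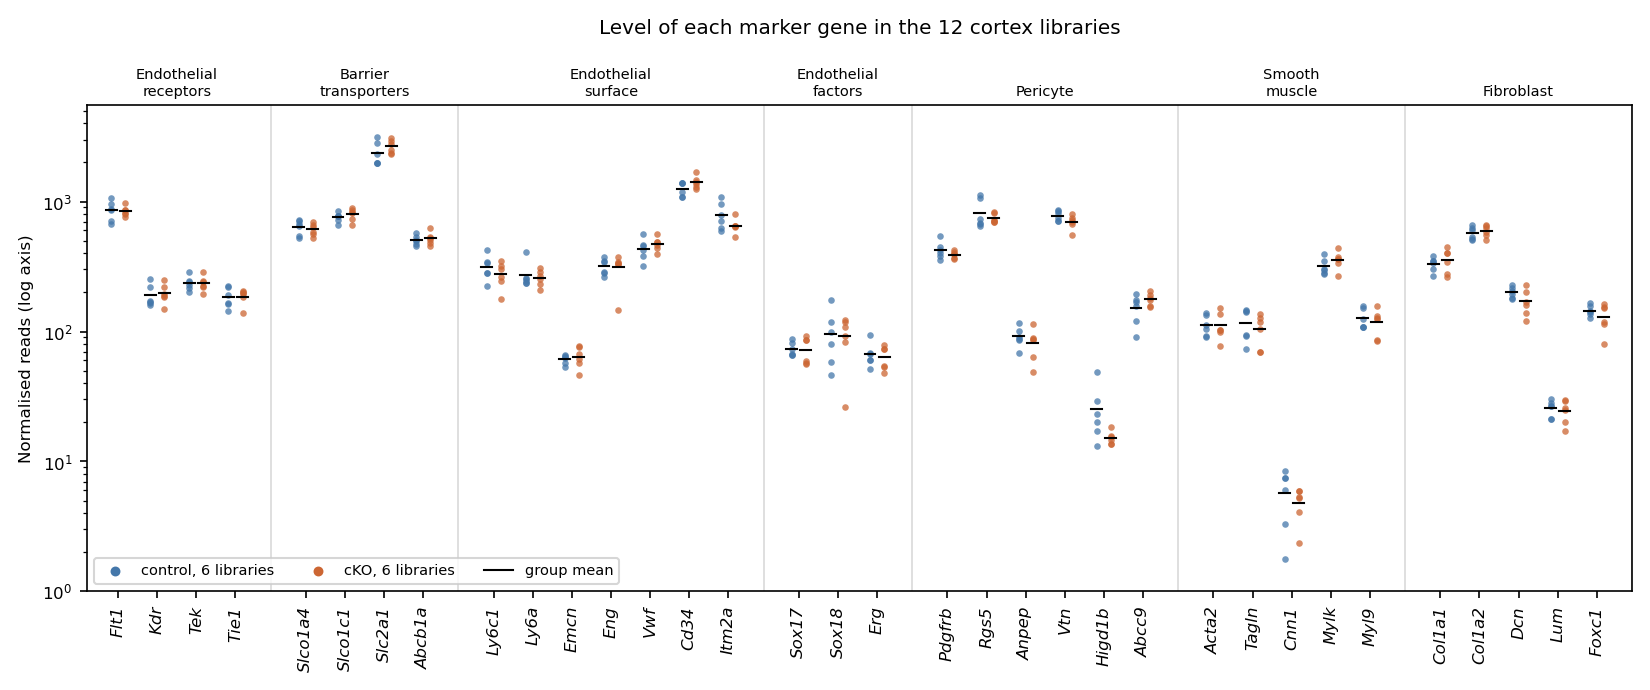
Normalised reads of the 34 marker genes in every library on a log axis, with control and cKO libraries as separate points for each gene and genes grouped by cell type. The values of both genotypes overlap for each gene, and Cnn1 sits lowest, with means of 5.75 in controls and 4.83 in cKO.

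The intervals show how closely these libraries bound the difference of each marker. The 95% interval of the cKO to control ratio lay within 1.5-fold in either direction for 28 of 33 markers, as it did for 81.0% of all tested genes, and within 2-fold for 32 of 33. The exception at 2-fold was Higd1b, and the other 4 genes with an interval past 1.5-fold were Sox18, Anpep, Tagln and Abcc9. The log2 differences ran from -0.58 for Higd1b to 0.26 for Abcc9, with 12 above 0 and 21 below. Their median was -0.05, beside -0.00 over all tested genes, of which 49.9% were above 0. Leaving out control libraries 4 and 5 turned this median to 0.04, with 20 markers above 0 in place of 12 and still 0 called.

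**Figure D2:**
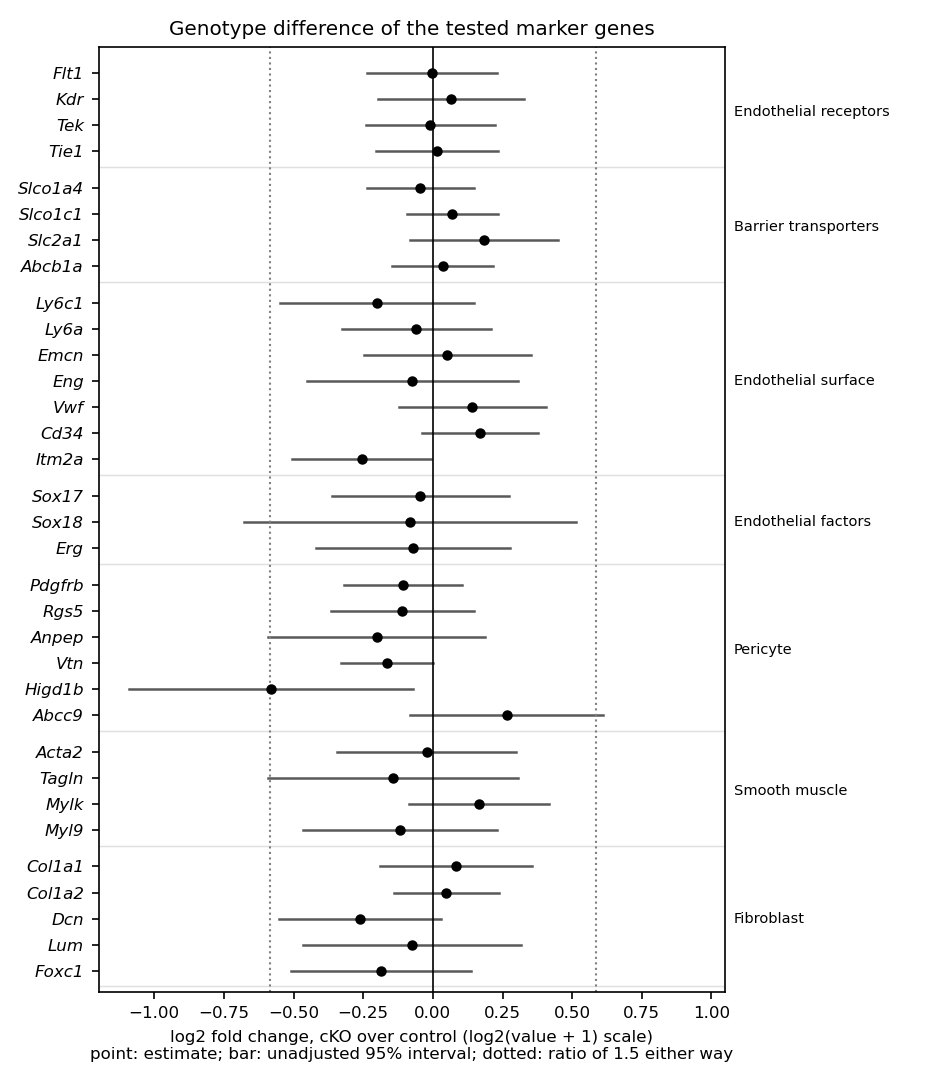
Log2 differences between cKO and control for the 33 tested markers, with points for the limma estimates and bars for their 95% intervals, grouped by cell type. Estimates scatter on both sides of 0, and Higd1b, at -0.58, and Itm2a, at -0.26, are the 2 whose bars do not reach it.

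Endothelial growth factor receptors stood at nearly the same mean level in both genotypes. Flt1 encodes VEGF receptor 1, a high-affinity receptor that limits VEGF signalling. Its values in control libraries 1 to 6 were 877, 953, 703, 1063, 863 and 676 normalised reads. In cKO libraries 1 to 6 they were 811, 979, 861, 765, 855 and 802. All 6 cKO values lay inside the control range, whose extremes were control 4 and control 6. The means were 856 ± 147 normalised reads in controls and 845 ± 74.4 in cKO (SD, n = 6 each), the log2 difference was -0.00 (SE 0.11) and the interval of the ratio ran from 0.849 to 1.17 (adjusted p = 0.993). Kdr, encoding the main signalling receptor for VEGF-A, had the smallest p of the 4 receptors. It read 170.3, 253, 219, 159.7, 166 and 168 normalised reads in control libraries 1 to 6 and 184, 249, 194, 221, 189 and 149 in cKO libraries 1 to 6. Library 2 was the highest of each genotype, and the groups overlapped throughout, with a log2 difference of 0.07 (SE 0.12) and an adjusted p of 0.846. Tek, the angiopoietin receptor TIE2, averaged 236 ± 28.8 normalised reads in controls and 235 ± 31.8 in cKO. Tie1, its co-receptor, averaged 185 ± 33.8 normalised reads in controls and 186 ± 24.5 in cKO, with cKO 4 at 138 standing below the other 5 cKO libraries. The median log2 difference of the 4 receptors was 0.01.

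None of the 4 blood-brain barrier transporters was called. Slc2a1 encodes GLUT1, the glucose carrier of the barrier, which astrocytes also make. Its control libraries 1 to 6 held 3136, 2308, 1980.0, 1977, 1996 and 2818 normalised reads. Its cKO libraries 1 to 6 held 3103, 2381, 2307, 2753, 2477 and 2936. Control 1 held the single highest value, whereas controls 3, 4 and 5 lay below all 6 cKO libraries. The means were 2369 ± 498 normalised reads in controls and 2659 ± 322 in cKO, the log2 difference was 0.18 (SE 0.13), and the interval of the ratio ran from 0.944 to 1.36 (adjusted p = 0.586). Slco1c1, the thyroxine transporter OATP1C1, averaged 758 ± 59.7 normalised reads in controls and 798 ± 86.3 in cKO, a log2 difference of 0.07. Slco1a4, an organic anion transporter, averaged 633 ± 83.98 normalised reads in controls and 612 ± 64.2 in cKO, a log2 difference of -0.05. Abcb1a, the drug efflux pump P-glycoprotein, averaged 507 ± 42.9 normalised reads in controls and 521 ± 58.6 in cKO, a log2 difference of 0.04. Both Slco1a4 and Abcb1a have close relatives in the genome with which reads may have been divided. The median of the 4 transporters was 0.05.

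Among the 7 endothelial surface and secreted proteins, Itm2a had the smallest p and Cd34 the next smallest. Itm2a, a membrane protein abundant in brain endothelium, read 621, 596, 784, 1088, 965 and 702 normalised reads in control libraries 1 to 6. In cKO libraries 1 to 6 it read 644, 530.4, 652, 648, 642 and 795. Controls 4 and 5 were the 2 highest of all 12 libraries, and the other 4 controls lay within the span of the cKO values. The means were 793 ± 197 normalised reads in controls and 652 ± 84.2 in cKO, a log2 difference of -0.26 (SE 0.12) with an unadjusted p of 0.0452 and an adjusted p of 0.503. Without control libraries 4 and 5 the difference was -0.09. Cd34, the sialomucin on capillary and progenitor cells, averaged 1254 ± 154 normalised reads in controls and 1407 ± 154 in cKO (log2 difference 0.17, SE 0.10, adjusted p = 0.544). Vwf, the platelet-binding factor stored in endothelial cells, averaged 433 ± 82.2 normalised reads in controls and 473 ± 55.7 in cKO, and Emcn, the capillary and venous sialomucin endomucin, averaged 61.1 ± 4.83 normalised reads in controls and 64.1 ± 11.9 in cKO. Eng, the TGF-beta co-receptor endoglin, averaged 317 ± 44.9 normalised reads in controls and 312 ± 82.7 in cKO, with cKO 4 at 146 far under the next lowest cKO library at 331. Of the Ly6 family of surface proteins, Ly6a averaged 273 ± 67.8 normalised reads in controls and 259 ± 35.4 in cKO. Ly6c1 averaged 316 ± 68.5 normalised reads in controls and 275 ± 60.04 in cKO, and its reads may have been divided with its near-identical neighbour Ly6c2. The median of the 7 was -0.06, and it stood at 0.12 without cKO library 4 and at 0.04 without control libraries 4 and 5. None was called in either case.

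The 3 endothelial transcription factors had similar means in both genotypes. Erg, an ETS factor that maintains endothelial identity, had the smallest p of the 3. Its control libraries 1 to 6 read 60.05, 59.9, 67.95, 67.6, 93.7 and 51.3 normalised reads and its cKO libraries 1 to 6 read 54.5, 48.2, 78.3, 73.5, 52.9 and 73.03. Control 5 was the highest and cKO 2 the lowest, and the groups overlapped (means 66.8 ± 14.5 normalised reads in controls and 63.4 ± 12.95 in cKO, log2 difference -0.07, SE 0.16, adjusted p = 0.873). Sox17 and Sox18, SOX factors of arterial and general endothelial development, differed by -0.05 (SE 0.15) and -0.08 (SE 0.28) on the log2 scale. Sox18 had the widest spread among the endothelial markers, from 46.1 to 175 (median 89.96) in controls and from 26.1 to 122 (median 99.9) in cKO, its lowest value being that of cKO 4. Its ratio interval ran from 0.63 to 1.43, so these libraries do not place the ratio more closely than those bounds.

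**Figure D3:**
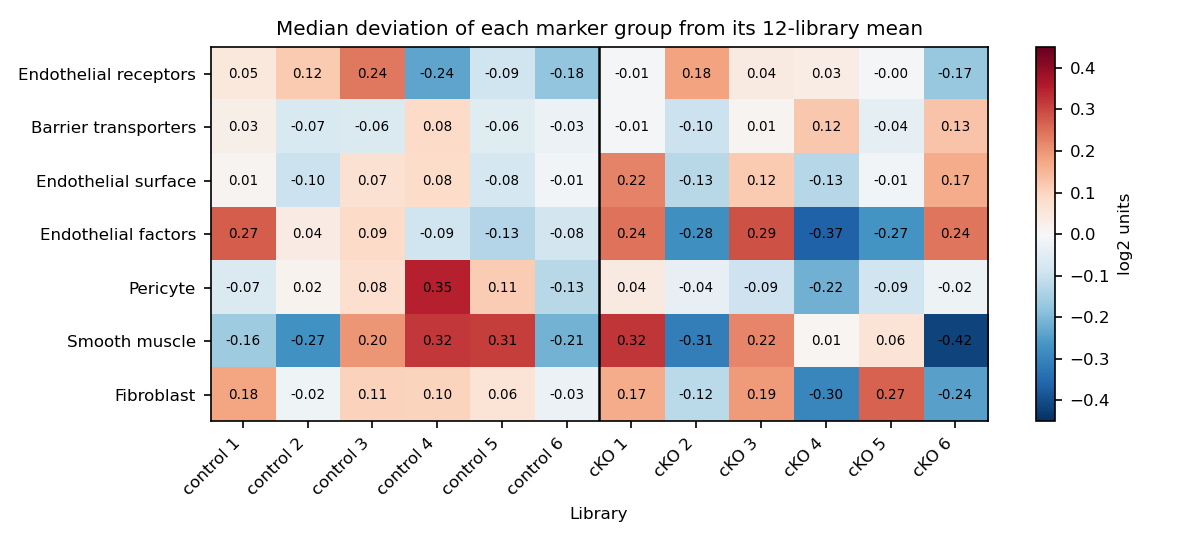
Heat map of the median deviation of each of the 7 marker groups from its mean over 12 libraries (log2 units, rows are groups, columns are libraries, red above and blue below). Cells run from -0.42 (smooth muscle group in cKO 6) to 0.35 (pericyte group in control 4), and red and blue cells stand on both sides of the line between genotypes.

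Pericyte genes were lower on average in cKO in 5 of 6 cases, where 49.9% of all tested genes were above 0, and none was called. Pdgfrb encodes the receptor for endothelial PDGF-B. Control libraries 1 to 6 read 378, 401, 421, 541, 450.2 and 357 normalised reads and cKO libraries 1 to 6 read 392, 409, 421, 362, 394 and 369. Control 4 was the highest and control 6 the lowest of all 12, so the cKO values lay inside the control range. The means were 425 ± 65.6 normalised reads in controls and 391 ± 22.7 in cKO, the log2 difference was -0.11 (SE 0.10) and the ratio interval ran from 0.802 to 1.07 (adjusted p = 0.678). Without control libraries 4 and 5 the log2 difference was 0.04. Higd1b, of the hypoxia-inducible HIG domain family, whose transcript marks brain pericytes, had the smallest p of all 33 markers. It read 17.3, 13.2, 23.2, 48.9, 29.4 and 20.03 normalised reads in control libraries 1 to 6. It read 13.6, 14.5, 15.8, 15.4, 13.6 and 18.5 in cKO libraries 1 to 6. Controls 4 and 5 were the 2 highest, and control 2 was lower than every cKO library. The log2 difference was -0.58 (SE 0.24), with an unadjusted p of 0.0281, an adjusted p of 0.476 and a ratio interval of 0.470 to 0.952. Without control libraries 4 and 5 it was -0.27, with an adjusted p of 0.993. Vtn, encoding the matrix protein vitronectin, averaged 780.2 ± 67.5 normalised reads in controls and 698 ± 86.3 in cKO (log2 difference -0.16, SE 0.08, unadjusted p = 0.0519, adjusted p = 0.516). Rgs5, a regulator of G-protein signalling, averaged 820.5 ± 214 normalised reads in controls and 743 ± 62.2 in cKO, and Anpep, the aminopeptidase CD13, averaged 91.6 ± 16.2 normalised reads in controls and 81.3 ± 22.3 in cKO. Abcc9, the SUR2 subunit of the pericyte potassium channel, was the pericyte gene above 0, at 151 ± 39.03 normalised reads in controls and 177 ± 19.8 in cKO and a log2 difference of 0.26 (SE 0.16). Without control libraries 4 and 5 its difference was 0.50 (adjusted p = 0.485). The median of the 6 pericyte genes was -0.14, and -0.05 without those 2 libraries. In libraries with Y-linked reads 3 of 6 were above 0, and 1 of 6 in those without, the set that holds controls 4 and 5. The share of all genes above 0 within each set was not counted. The summed level of the pericyte genes ran from 1981 to 2755 normalised reads in controls and from 1850.5 to 2265 in cKO. Red blood cell genes moved with the same 2 controls: the summed level of the 5 measured genes was 3145 in control 4 and 3582 in control 5. It ran from 857 to 1904 in the other 10 libraries, and none of the 5 was at 0 in every library. Its part in the Itm2a, Higd1b and other pericyte values, and that of the mitochondrial ribosomal share, was not tested.

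Vascular smooth muscle genes encode the contractile apparatus of arteries and arterioles. Serum response factor switches such genes on through the CArG box, so the RefSeq sequence upstream of their starts is shown for a pair of them. Only the strict spelling of the box, a run of A and T alone between CC and GG, was sought. The windows hold the 250 bases before the annotated start in the GRCm38.p6 build, 5′ to 3′ on the gene's strand, and capitals mark a CArG box on either strand.
Myl9: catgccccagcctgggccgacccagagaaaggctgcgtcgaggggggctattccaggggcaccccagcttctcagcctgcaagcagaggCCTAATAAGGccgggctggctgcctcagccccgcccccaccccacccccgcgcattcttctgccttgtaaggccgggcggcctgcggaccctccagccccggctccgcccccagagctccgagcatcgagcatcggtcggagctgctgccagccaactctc
Acta2: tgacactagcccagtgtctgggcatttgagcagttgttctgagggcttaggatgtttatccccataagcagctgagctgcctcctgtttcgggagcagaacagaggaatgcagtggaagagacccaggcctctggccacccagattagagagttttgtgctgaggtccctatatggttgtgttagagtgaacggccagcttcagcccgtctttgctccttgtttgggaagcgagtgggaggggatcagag
The window of Myl9, the regulatory light chain of smooth muscle myosin, held 1 CArG box of this spelling. That of Acta2, smooth muscle alpha-actin, held none of it. The Acta2 window did hold ccctatatgg and ccttgtttgg, which each depart from the strict spelling by 1 letter inside the run. Such looser forms were not sought or marked, so the search does not show that Acta2 lacks CArG boxes. Of the 24 markers with a sequence in the table, Myl9 was the only one with a CArG box of the strict spelling, against 1.62% of 27025 genes. A match is a description of letters and says nothing about binding.

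No smooth muscle gene was called. Mylk, myosin light chain kinase, had the smallest p of the 4 tested. Control libraries 1 to 6 read 299, 275, 302, 396, 349.5 and 284 normalised reads and cKO libraries 1 to 6 read 363, 339, 363, 437, 377 and 265. Library 4 was the highest of each genotype, cKO 6 was the lowest of all 12, and the means were 318 ± 46.5 normalised reads in controls and 357 ± 55.7 in cKO (log2 difference 0.17, SE 0.12, adjusted p = 0.601). Acta2 averaged 112 ± 20.6 normalised reads in controls and 112 ± 27.3 in cKO, a log2 difference of -0.02 (SE 0.15), and may share reads with other actin genes. Tagln, the actin-binding protein transgelin, averaged 115 ± 32.6 normalised reads in controls and 104 ± 28.5 in cKO, a log2 difference of -0.14 (SE 0.21) with a ratio interval of 0.663 to 1.24. Myl9 averaged 127 ± 22.9 normalised reads in controls and 118 ± 28.7 in cKO, a log2 difference of -0.12 (SE 0.16). Cnn1, the actin-binding protein calponin, stood at 1.76 to 8.39 (median 6.77) normalised reads in controls and 2.37 to 5.97 (median 5.29) in cKO and was not tested, since its mean was under the minimum of 10. The median of the 4 tested was -0.07, turning to 0.11 without control libraries 4 and 5.

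Fibroblast genes were likewise not called. Dcn encodes decorin, a collagen-binding proteoglycan abundant in meningeal and perivascular fibroblasts. Control libraries 1 to 6 read 206, 180.5, 226, 195, 215 and 179 normalised reads. The cKO libraries 1 to 6 read 203, 168, 161, 140.0, 229 and 121. The values of 4 cKO libraries, numbers 2, 3, 4 and 6, lay below every control, while cKO 5 was the highest of all 12. The means were 200.5 ± 18.99 normalised reads in controls and 170.4 ± 39.9 in cKO, the log2 difference was -0.26 (SE 0.14), and the ratio interval ran from 0.682 to 1.02 (adjusted p = 0.527). Of the chains of collagen I, Col1a1 averaged 330.2 ± 40.04 normalised reads in controls and 355 ± 74.2 in cKO, a log2 difference of 0.08. Col1a2 averaged 575 ± 66.8 normalised reads in controls and 594 ± 60.7 in cKO, a log2 difference of 0.05. Lum, the proteoglycan lumican, averaged 25.6 ± 3.64 normalised reads in controls and 24.5 ± 4.98 in cKO. Foxc1, a forkhead factor required for meningeal development, averaged 145 ± 14.3 normalised reads in controls and 130.4 ± 31.99 in cKO, a log2 difference of -0.19 (SE 0.15). The median of the 5 was -0.08, and it was 0.00 without control libraries 4 and 5.

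The levels of the markers per transcript length spanned a wide range. Per kilobase of transcript, averaged over the 12 libraries, Slc2a1 was the highest at 771 ± 131 normalised reads and Cnn1 the lowest at 2.22 ± 0.871, a ratio of 347. Cd34, Vtn and Itm2a followed Slc2a1 at 434, 424 and 414 per kilobase, and their ranges over libraries overlapped, so their order is not resolved. Among the receptors the level per kilobase was 123 for Flt1 against 50.7 for Tek, 43.8 for Tie1 and 32.7 for Kdr. The lowest Flt1 library, at 98.1, was above the highest Tek library, at 62.2. The fibroblast genes ranged from 109 for Col1a2 to 10.2 for Lum.

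The spread between libraries of one genotype set the precision of these comparisons. The median coefficient of variation was 17.4% in controls and 14.6% in cKO. Control 4 held the highest of all 12 values for 9 of the 33 tested markers, and cKO 4 held the lowest for 10 and cKO 6 for 7. The same counts were not made over all tested genes, so they do not set the markers apart from other genes. Base composition moved with the library that was most often lowest: over 14133 tested genes with an annotated transcript, the deviation of a gene in cKO 4 correlated with its GC content at r = -0.41, and over the 33 markers at r = -0.35. In control 3 the deviation correlated with transcript length at r = -0.40 over all genes and r = -0.60 over the markers. These correlations are across genes, which are not independent replicates. Removing both trends from every library, an alternative added after seeing the data, left 0 of 33 markers called and a median of -0.04.

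**Figure D4:**
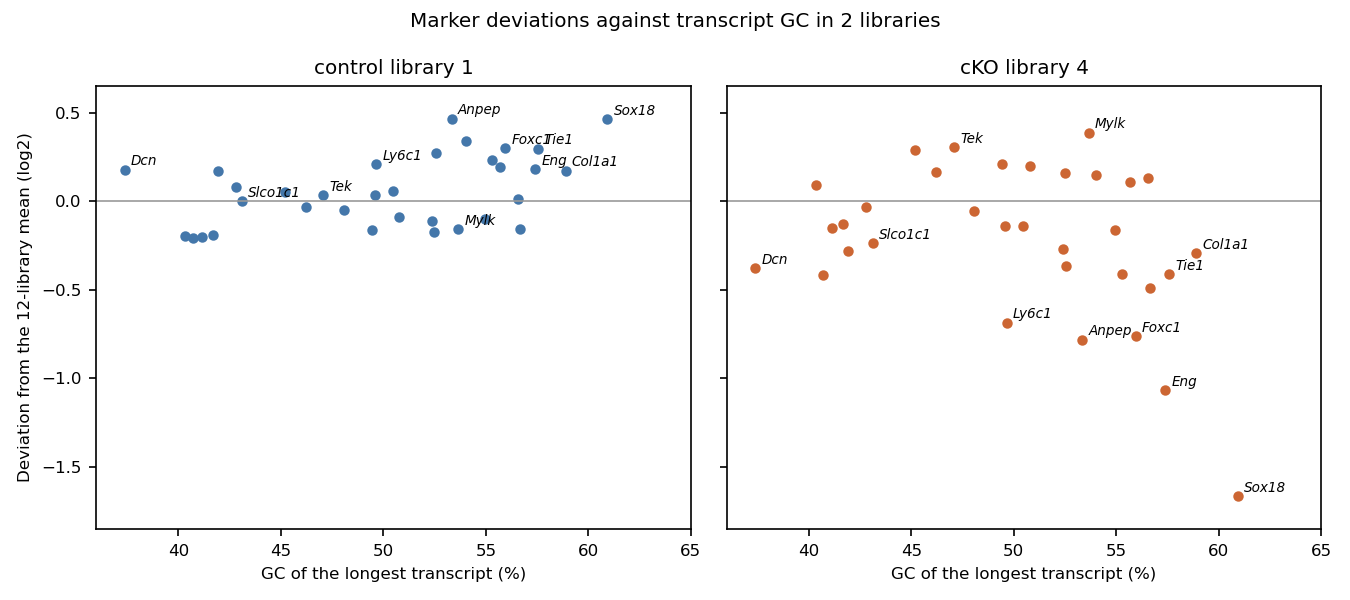
Deviation of the 33 markers from their mean over 12 libraries (log2 scale, vertical axis) against GC content of the longest transcript in percent (horizontal axis), for control 1 and cKO 4, one point per gene. Markers of high GC content tend to lie lower in cKO 4 (r = -0.35) and higher in control 1 (r = 0.44).

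Over the 12 libraries, smooth muscle, fibroblast and pericyte genes correlated more within their group than outside it, by the median. Genotype and the Y-linked term were removed first. The endothelial groups showed little or no such excess. Acta2 and Tagln had the highest of the 528 pairwise correlations, with Pearson's r of 0.93 and Spearman's rho of 0.92, and r was 0.87 without control 2 and cKO 6, the libraries farthest out. The median r among the 4 smooth muscle genes was 0.62, against 0.21 between them and the other markers. For the 5 fibroblast genes these medians were 0.45 and 0.15, and for the 6 pericyte genes 0.33 and 0.18. For the 4 endothelial receptors they were -0.27 and -0.09, and for the 4 transporters -0.02 and 0.02. The 7 endothelial surface genes had 0.22 and 0.16, and the 3 endothelial factors 0.16 and 0.09. Itm2a and Higd1b, assigned to endothelium and pericytes, correlated at r = 0.87 (rho 0.94, and r = 0.81 without control libraries 4 and 6). Pdgfrb and Higd1b correlated at r = 0.84, which became 0.59 without the same 2 libraries, and Flt1 and Abcc9 went from 0.81 to 0.59 without them. These values are descriptions over 12 libraries that share tissue, depth and base composition effects.

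**Figure D5:**
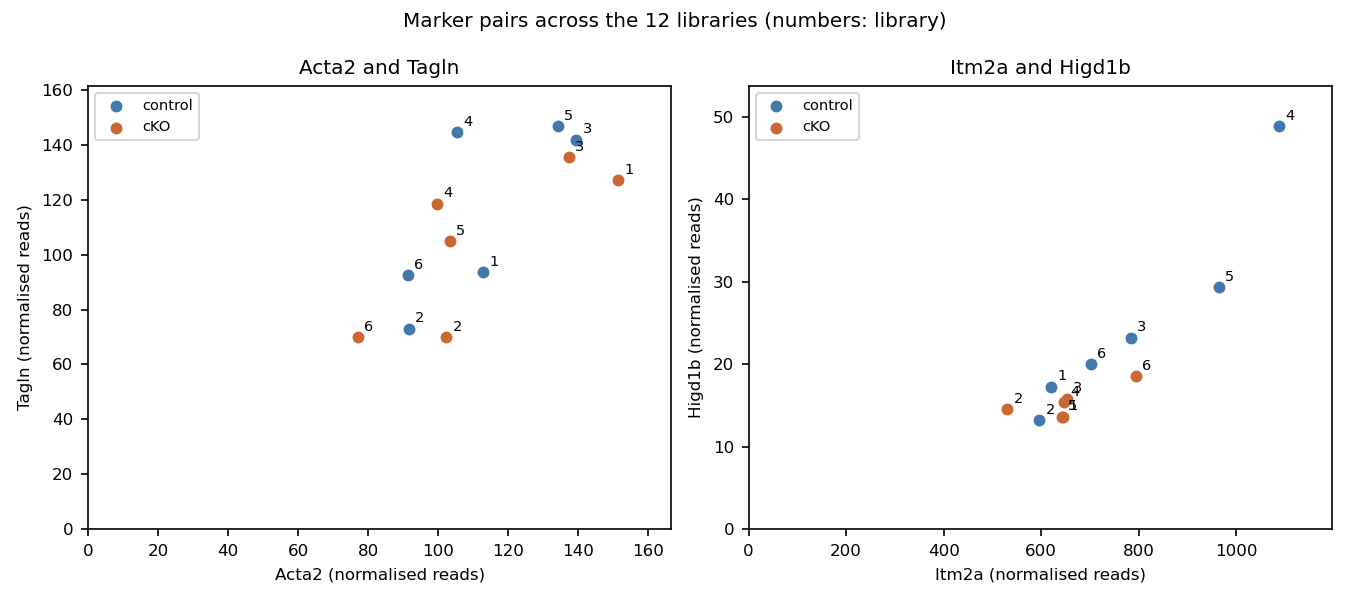
Normalised reads of Acta2 against Tagln (left) and of Itm2a against Higd1b (right), one point per library, numbered within each genotype. Acta2 and Tagln vary together over the 12 libraries, and control 4 lies at the upper end of the Itm2a and Higd1b panel with 1088 and 48.9 normalised reads.

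The sets of libraries with and without Y-linked reads share no library and were compared separately, with 3 cKO and 3 control libraries in each. A test of the difference between the sets gave an adjusted p under 0.05 for 0.0% of all tested genes. It gave an unadjusted p under 0.05 for 1 of 33 markers, Rgs5, against 8.77% of all genes. Rgs5 differed by 0.16 on the log2 scale in libraries with Y-linked reads and by -0.38 in those without (difference unadjusted p = 0.0203, adjusted p = 0.562). The sign was opposite in the 2 sets for 17 of 33 markers, with 17 above 0 in the first set and 12 in the second. All 4 tested smooth muscle genes were above 0 with Y-linked reads (median 0.14) and 1 of 4 without (median -0.26), and neither set held a called marker. The matching shares of all tested genes, for opposite signs, genes above 0 and calls within a set, were not counted. These counts therefore do not set the markers apart from other genes. Control libraries 4 and 5 belong to the second set, so their part in the differences between the sets cannot be told apart from that of the set.

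Other genes of the vascular pathways were read from wider lists of ligands, receptors, junctions, transporters, factors, mural, basement membrane and fibroblast genes. Of 129 tested, 2 were called, both higher in cKO, where 0.834% of all tested genes were called in either direction. The lists were chosen with earlier results of these data known, so this count does not show an excess over that share. Esam, an adhesion molecule of endothelial tight junctions, rose from 217 ± 22.1 to 530.3 ± 50.8 normalised reads (log2 difference 1.28, SE 0.09, adjusted p = 8.9e-07), with all 6 cKO libraries above all controls. Ednrb, the endothelin B receptor, which astrocytes also make, rose from 807 ± 100.2 to 1040.5 ± 45.97 (log2 difference 0.37, SE 0.08, adjusted p = 0.0322), with all 6 cKO libraries again above all controls. This call was lost in 13 of 23 alternative settings, with adjusted p up to 0.124, among them leaving out any single library other than control 4 or cKO 4. In the astrocyte marker list 1 of 5 genes was called higher, the water channel gene Aqp4 (2109 ± 297 in controls, 3035 ± 284 in cKO, adjusted p = 0.00973, named after its value was seen). The summed astrocyte level ran from 99981 to 161666 normalised reads in controls and from 107294 to 140547 in cKO, with none of the 5 at 0, and its part in the Ednrb value was not tested. Of the 11 junction genes tested Esam was the only one called, the median of the list was -0.02, and F11r, encoding the junction protein JAM-A, had the next smallest p at 133 ± 22.9 normalised reads in controls and 116 ± 13.9 in cKO (adjusted p = 0.576). Ligands were not called (0 of 20, median -0.00). The smallest p there was that of Jag1, a Notch ligand, at 134 ± 28.3 normalised reads in controls and 96.98 ± 16.7 in cKO and an adjusted p of 0.401. Pdgfb, the ligand of Pdgfrb, stood at 567 ± 136 normalised reads in controls and 652 ± 34.8 in cKO (log2 difference 0.23, SE 0.12, adjusted p = 0.522). Among 21 receptors, Ednrb was the called gene, and Fzd4, the Norrin and Wnt receptor of retinal and brain vessels, stood at 183 ± 41.5 normalised reads in controls and 241 ± 19.1 in cKO (log2 difference 0.42, SE 0.12, adjusted p = 0.170). Without control libraries 4 and 5, Fzd4 was called at 0.57 (adjusted p = 0.0373).

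Further endothelial factors were below 0 in 12 of 15 cases, with 0 called and a median of -0.15, where 49.9% of all tested genes were above 0. In libraries with Y-linked reads 6 of 15 were above 0 (median -0.09), and 3 of 15 in those without (median -0.24), the set that holds controls 4 and 5. The difference between sets was not tested for the list, and the share of all genes above 0 within each set was not counted. Tal1, a basic helix-loop-helix factor of blood and endothelial development, read 40.8 ± 7.43 normalised reads in controls and 24.5 ± 5.38 in cKO (log2 difference -0.72, SE 0.17, adjusted p = 0.0803). Foxq1, a forkhead factor of brain endothelium, read 72.2 ± 8.31 normalised reads in controls and 55.04 ± 2.22 in cKO with all 6 cKO values under all controls (log2 difference -0.38, SE 0.11, adjusted p = 0.265). Erg and its ETS relatives recognise a core of GGAA, and the letters CAGGAA were sought on both strands of the 250-base windows. They were found in 8 of 24 markers, or 33.3%, against 28.3% of all genes in the table. The window of Tek, which like those of Cd34 and Emcn held them at 2 places, is shown. Both places in Tek lay on the reverse strand and read TTCCTG on the gene's strand, in capitals.
Tek: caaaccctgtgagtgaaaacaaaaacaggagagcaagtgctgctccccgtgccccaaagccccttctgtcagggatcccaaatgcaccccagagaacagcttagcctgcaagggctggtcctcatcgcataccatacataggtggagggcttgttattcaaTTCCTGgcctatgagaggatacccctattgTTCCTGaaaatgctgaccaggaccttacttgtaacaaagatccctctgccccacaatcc
The SOX letters ACAAT stood in 7 of 24 windows, or 29.2%, against 30.9% of all genes. These shares describe letters only. In the remaining lists 0 genes were called: 0 of 15 barrier transport genes (median 0.05), 0 of 12 mural genes (median -0.01), 0 of 12 basement membrane genes (median 0.10) and 0 of 24 fibroblast and meningeal genes (median -0.06). Slc38a5, a glutamine transporter, had the smallest p of the transport list at 36.2 ± 9.65 normalised reads in controls and 45.1 ± 9.74 in cKO (adjusted p = 0.548). Lmod1, leiomodin of smooth muscle, had that of the mural list at 19.5 ± 4.23 normalised reads in controls and 14.8 ± 3.44 in cKO (adjusted p = 0.527). Lama5, a laminin chain of the vessel wall, had that of the basement membrane list at 163 ± 43.9 normalised reads in controls and 125 ± 23.2 in cKO (adjusted p = 0.516). Igf2, a growth factor made by meninges and vessels, had the smallest p of the fibroblast list, at 954 ± 187 normalised reads in controls and 1215 ± 93.05 in cKO (log2 difference 0.37, SE 0.11, adjusted p = 0.296). Most of that list lay the other way, with 7 of 24 above 0 and 17 below, where 49.9% of all tested genes were above 0. Its summed level was 15457 ± 1205 normalised reads in controls and 14015 ± 2150 in cKO.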

How the data were processed

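RNA-seq of total RNA from mouse cerebral cortex was deposited for 6 cKO and 6 control libraries, each from 250 ng of RNA depleted of ribosomal RNA and made with a strand-keeping kit, per the labels' protocols. Trim Galore, Bowtie, STAR, bedtools and the build mm9 are named in the submitters' processing notes without versions or roles, and no source used here gives the use of strand in counting. The expression values are, per the file headers, normalised counts, a signal scaled by the authors between libraries. Within a tolerance of 0.01, 100% of values above 0 were whole multiples of 1 step per library, which gave whole reads. The log2 fold changes, p-values and Wald score in the same table are the authors' deposited DESeq2 results. Columns were assigned to a genotype by name and not to single samples, because Y-linked reads (4 genes, summed value above 100) disagree with the labelled sex of same-numbered samples. The labels call the samples biological replicates and do not name animals. The p-values cover the spread seen among these libraries.

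The main test was limma 3.58.1 (R 4.3.3) on log2(value + 1). It was two-sided and moderated with a trend on mean level, and the model held genotype and a term for Y-linked reads. It covered all genes with a mean of at least 10. Adjusted p-values (Benjamini-Hochberg) cover all these genes, and a gene was called under 0.05. A fold change on this scale understates that of weakly expressed genes. The script was tested on simulated data. edgeR 4.0.16 on the recovered reads, DESeq2 1.42.0, other pseudocounts and filters, single libraries left out, a replicate block and removal of GC and length trends were tried as alternatives. Members and lists were chosen with earlier results of these data known. Every marker may be named, with values of every library for Flt1, Pdgfrb, Dcn and the smallest p of each cell type group. In each wider list the called genes, or the 1 or 2 with the smallest p, are named. Carmn, Hbb-bs and Hbb-bt were not found under those names. GC content and length were those of the longest GENCODE vM21 transcript, which 98.2% of tested genes had by symbol. Promoter windows come from RefSeq (GRCm38.p6), in which 24 of 34 markers matched by symbol, and no coordinates are given because the builds differ.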

Additional observations from a re-analysis of the deposited data

Results flagged for a closer look

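Among 68 groups of 6 values, 1 per marker and genotype, 3 held a library far from the other 5 by Dixon's criterion of the gap over the range, which is 4.41% of groups, where chance gives about 1 in 20. Tie1 in cKO 4 stood at 138 normalised reads, below the other 5 cKO libraries at 184 to 203. Eng in the same library stood at 146, below 331 to 375. Ly6a in control 3 stood at 410.3, above the other controls at 235 to 259.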

How the results depend on the processing

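No marker was called in any of 23 alternatives. The smallest adjusted p of a marker there was 0.214 (Higd1b, without control replicate 2). The median log2 difference of the markers ran from -0.09 to 0.04, the latter without control libraries 4 and 5, where the spread of this median between replicates was 0.0990 (SD). Of the 33 tested markers, 19 changed sign in at least 1 alternative and 14 did not. The called genes numbered 120 of all genes tested, 58 with a filter at a mean of 50, 119 with edgeR and 178 with DESeq2 on the recovered reads, and 97 to 123 with single libraries left out. Genes with complete separation numbered 145. They numbered 85 with the filter at 50, 247 without control libraries 4 and 5, and 169 to 258 with single libraries left out, the highest without control replicate 2. The difference between sets had 0 genes called, and 0 to 7 with single libraries left out, the 7 without control replicate 6. The stricter filter tests fewer genes and the settings that leave out libraries use fewer samples by construction.

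A replicate block on the library number gave 118 called genes and 0 called markers, with 5 markers at an unadjusted p under 0.05 in place of 2. Without cKO replicate 6 that number of markers was 4. It was 0 with GC and length trends removed, or when cKO replicate 4, control replicate 3 or control replicate 5 alone was left out. Same-numbered libraries correlated at r = 0.09 to 0.50, over 0.1 for 4 of 6 numbers, and 7 of 12 libraries correlated best with their own number. This is at most a hint of shared number effects from the data, not the design. Genotype means were removed before these correlations, but the Y-linked term was not. Libraries 1 to 3 of both genotypes hold Y-linked reads, and the part of that split in the correlations was not tested. The labels do not say what a number marks, and r was not over 0.1 for every number, so the block was kept as an alternative. Hbb-b2 was called under the block (adjusted p = 0.0398) and Hba-a1 without cKO replicate 3 (log2 difference -0.85, adjusted p = 0.0430). Nsd1 was called with GC and length trends removed (log2 difference -0.49, adjusted p = 0.00292), an alternative chosen after seeing the data, and the cause was not tested. Each interval gives the ratios compatible with 6 libraries per genotype, before adjustment for the number of genes, and is not a limit of detection.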

Other observations

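Red blood cell genes, which report blood left in the vessels, were below 0 in 5 of 5 cases, with 0 called and 4, the globin genes, at an unadjusted p under 0.05. Over all tested genes 49.9% were above 0, 9.73% had such a p and 5.13% had it and were lower in cKO. The 4 globin genes are close relatives among which reads may have been divided, so they do not count as separate observations. Hba-a1 read 237 ± 44.7 normalised reads in controls and 151 ± 53.7 in cKO (SD, n = 6 each; log2 difference -0.69, SE 0.20, adjusted p = 0.238). Hbb-b1 read 1446 ± 862 normalised reads in controls and 796 ± 222 in cKO, and controls 4 and 5 held 2341 and 2694. The median of the 5 was -0.28 in libraries with Y-linked reads and -1.07 in those without, a difference that was not tested for the list.

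Of 5 genes read for macrophages at the brain borders, 0 were called. Their log2 differences ran from -0.49 to 0.24, with 2 above 0 and 3 below, and the median was -0.04. Mrc1, the mannose receptor, stood at 108 ± 26.2 normalised reads in controls and 104 ± 22.04 in cKO, and Lyve1, a hyaluronan receptor, at 19.5 ± 4.93 normalised reads in controls and 24.02 ± 8.73 in cKO. The 5 microglial genes had a median log2 difference of 0.05 with 0 called.

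Over the 12 libraries, with the model's terms removed, the genes most like Dcn among 14397 were Chst9 (r = 0.85), Aspn (r = 0.84), Erap1 (r = 0.83), Six2 (r = 0.82) and B230314M03Rik (r = 0.82). Those most like Acta2 were Snrpd3 (r = 0.93), Tagln (r = 0.93), Chchd4 (r = 0.92), H2-Ke6 (r = 0.92) and Hist1h4c (r = 0.90). Those most like Flt1 were Hipk1 (r = 0.97), 2610507B11Rik (r = 0.97), Sec24a (r = 0.96), Zeb2 (r = 0.96) and Csmd1 (r = 0.96). Those most like Pdgfrb were C230004F18Rik (r = 0.95), AA415398 (r = 0.94), Cobll1 (r = 0.94), Ubn2 (r = 0.94) and Gstt2 (r = 0.93). None of these but Tagln is among the 34 markers, and the values are descriptions over libraries that share depth and base composition effects.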
